A study of Mus musculus with 11 samples.

Results

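The members described here are 10 genes of glucose use and the response to low oxygen: the glucose transporter Slc2a1, the glycolytic enzymes Hk2, Aldoa, Tpi1, Gapdh, Pgk1, Eno1, Pkm and Ldha, and the transcription factor subunit Hif1a. They were taken by gene symbol, as a set chosen with earlier results of these data known, from a count table of 35814 symbols, and all 10 were found. The table comes from bulk sequencing of CD4+ T cell RNA out of the kidneys of 11 mice, 1 library per mouse, on day 2 after ischemia-reperfusion injury (IRI) of the kidney. Bead enrichment and flow sorting preceded the extraction of RNA, which was amplified.

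All mice were males of 8 to 12 weeks on a C57BL/6 background and all were subjected to 45 min of ischemia. All 3 groups carried a Cre recombinase under the CD4 promoter. CD4cre mice (n = 3), labelled WT, served as the controls. CD4IKK1Δ mice (n = 5) also carried floxed Chuk, which encodes the kinase IKK1, and CD4NIKΔ mice (n = 3) carried floxed Map3k14, which encodes the kinase NIK. NIK and IKK1 belong to the non-canonical NFκB pathway, and IKK1 is also part of the canonical IKK complex. The CD4 promoter is active in developing thymocytes, so that the deletion is not limited to mature CD4+ T cells. Sham-operated mice were not analysed here, so that every value below belongs to injured kidneys. Values of the targeted genes overlapped between the libraries labelled for their deletion and the controls. Chuk was at 16.6, 33.3 and 16.3 CPM (counts scaled by library size and TMM factors) in CD4cre and 16.7, 21.3, 22.3, 15.3 and 26.5 CPM in CD4IKK1Δ libraries, and Map3k14 at 19.5, 19.6 and 14.8 CPM in CD4cre and 12.8, 30.8 and 23.8 CPM in CD4NIKΔ libraries. Neither was called against CD4cre by edgeR's test (Chuk −0.11 on the log2 scale, FDR 0.921, and Map3k14 0.30, FDR 0.575). Values per gene do not resolve a deleted exon, and the names CD4IKK1Δ and CD4NIKΔ are used below as the labels of the libraries.

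In glycolysis, glucose enters the cell through transporters such as GLUT1 (Slc2a1), is trapped by hexokinases, split by aldolase and converted through a chain of enzymes to pyruvate, which lactate dehydrogenase can reduce to lactate. T cells that are activated increase glucose uptake and lactate production, and Myc, mTOR signaling and HIF-1α are known regulators of this switch. HIF-1α (Hif1a) is degraded when oxygen is present. In hypoxia it is stabilized, pairs with ARNT and binds short motifs with the core RCGTG, called hypoxia response elements, near many glycolytic genes. Its main control is on the protein, which was not measured in these libraries.

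The libraries held from 15751632 to 25737046 estimated counts, so that 3 counts, taken as the detection floor, correspond to between 0.115 and 0.212 CPM on the TMM scale used here. This floor covers counting error only, because reads of an amplified library carry no molecular identifiers. The labelled cell type was checked with 15 T cell markers. Their summed CPM was 3071, 2500 and 1600.0 in the CD4cre libraries, 12.5, 147, 1370.2, 662 and 591 in the CD4IKK1Δ libraries, and 8408, 11411 and 12580 in the CD4NIKΔ libraries, so that CD4IKK1Δ replicates 1 and 2 stood apart with the lowest T cell signal. The summed CPM of 12 neuron markers, which a CD4+ T cell is not known to express at such levels, ran the other way, from 3117 to 3920 in CD4cre, from 4075 to 4701 in CD4IKK1Δ and from 1063 to 2192 in CD4NIKΔ libraries. Of these 12 genes, 8 were lower in CD4NIKΔ than in CD4cre libraries by edgeR's quasi-likelihood test, where 8.97% of all genes were, and 14 of the 15 T cell markers were higher, where 12.1% of all genes were. In bulk samples, fewer cells of a type and less RNA per cell cannot be told apart.

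Per kilobase of the canonical transcript, the listed levels of the members differed by more than 3 orders of magnitude. In CD4cre libraries the medians were 1479.5 CPM per kb for Aldoa, 1425 for Gapdh and 1118 for Tpi1, followed by 139.5 for Pkm, 10.5 for Hif1a, 9.19 for Ldha, 6.58 for Eno1, 3.92 for Slc2a1, 0.358 for Pgk1 and 0.0375 for Hk2. Ranges over the CD4cre libraries overlapped between Aldoa and Gapdh, among Hif1a, Ldha and Eno1, between Eno1 and Slc2a1, and between Pgk1 and Hk2, so that these neighbours in the order were not separated beyond the spread between libraries. Tpi1 lay below Gapdh and above Pkm without overlap. Gapdh is placed here without its near-identical copies, which are described below. Summed with them it had 2531 to 2740 CPM in CD4cre libraries, above Aldoa at 1939.6 to 2377 CPM, and its canonical transcript is shorter (1420 against 1511 bases).

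**Figure D1:**
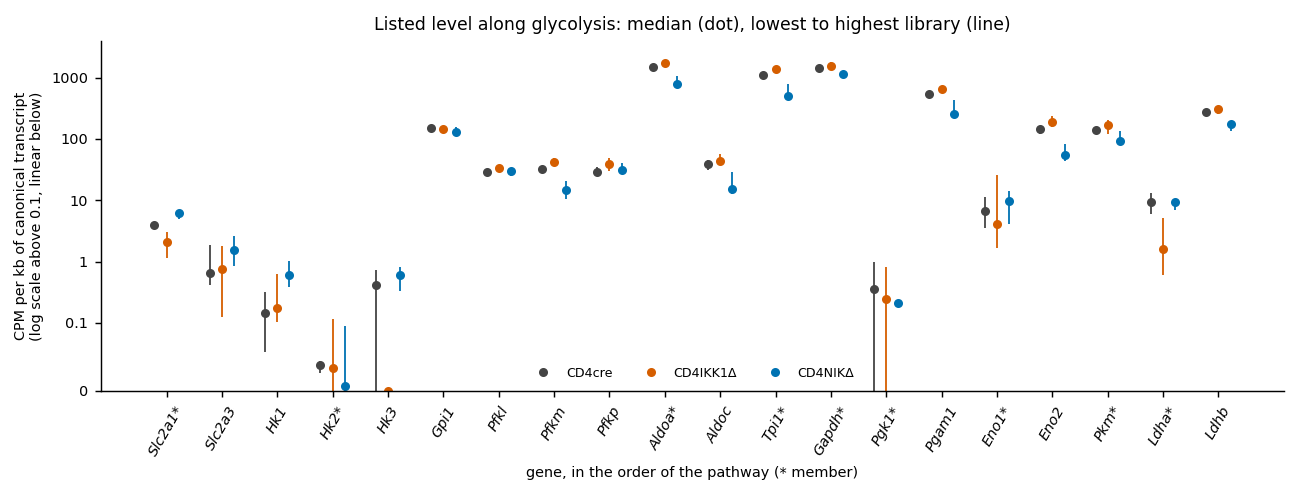
Level of glycolytic genes in the order of the pathway, as CPM per kb of canonical transcript (log scale above 0.1, linear below), with the group median as a dot and a line from the lowest to the highest library. The members (asterisks) Aldoa, Tpi1 and Gapdh sit between 477 and 1784 CPM per kb in all libraries, whereas Pgk1, the step after Gapdh, sits at or below 0.990 in all of them.

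Pgk1, Ldha, Eno1 and Hk2 were listed at very low values. Pgk1 was listed with 0 to 36 estimated counts per library and Ldha with 21 to 536, although Gapdh, the step before Pgk1, had 23114 to 50088 and Pgam1, the step after it, 6184 to 25225. The only isoenzyme of Pgk1 is known from the testis. Few counts were listed under near-identical copies of these genes, with no more than 0.0004023 counts in any library for the 2 copies of Pgk1. The 2 copies of Ldha held at most 28 counts, and up to 29.6% of the sum of Ldha and copies in a library. The 3 copies of Eno1 held at most 93.2 counts, and up to 48.8% of the sum of Eno1 and copies. Among genes with a mean above 200 counts, the share with whole numbers (within 0.01) in all 11 libraries was 41.0% for genes with 1 annotated transcript, 43.7% for 2 to 5, 33.3% for 6 to 10, 23.9% for 11 to 20 and 15.7% for 21 or more. Whether the listed values cover all transcripts of a gene was not tested. Values of Pgk1, Ldha, Eno1 and Hk2 are given here as listed and not as the level of the gene. The same holds for other genes with few listed counts named below, such as Hk1, Hk3 and Akt1.

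Promoter windows from 250 bases before to 50 bases after the start of transcription were available for all 10 members, 16 windows in all (RefSeq, mouse build GRCm38.p6). Windows of the members the results turn on are shown to let the hypoxia response element core be read beside the values. Capitals mark each match to ACGTG or GCGTG on either strand, which includes CACGT and CACGC as their reverse complements, and which overlaps the E-box CACGTG, a motif bound by Myc among others.
Hif1a, chr12:73907617-73907916, plus strand: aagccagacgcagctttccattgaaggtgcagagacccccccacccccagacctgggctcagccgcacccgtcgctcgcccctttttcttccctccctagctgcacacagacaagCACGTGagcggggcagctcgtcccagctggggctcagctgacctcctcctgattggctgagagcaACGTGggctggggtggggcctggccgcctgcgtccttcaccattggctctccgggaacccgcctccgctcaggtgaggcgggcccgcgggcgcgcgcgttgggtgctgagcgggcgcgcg
Slc2a1, chr4:119108495-119108794, plus strand: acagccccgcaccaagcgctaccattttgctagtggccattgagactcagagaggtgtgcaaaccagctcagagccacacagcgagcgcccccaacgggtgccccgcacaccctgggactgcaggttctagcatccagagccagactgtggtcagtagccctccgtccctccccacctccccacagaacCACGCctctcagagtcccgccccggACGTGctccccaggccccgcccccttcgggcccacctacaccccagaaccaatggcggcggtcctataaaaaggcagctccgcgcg
Ldha, chr7:46845554-46845853, plus strand: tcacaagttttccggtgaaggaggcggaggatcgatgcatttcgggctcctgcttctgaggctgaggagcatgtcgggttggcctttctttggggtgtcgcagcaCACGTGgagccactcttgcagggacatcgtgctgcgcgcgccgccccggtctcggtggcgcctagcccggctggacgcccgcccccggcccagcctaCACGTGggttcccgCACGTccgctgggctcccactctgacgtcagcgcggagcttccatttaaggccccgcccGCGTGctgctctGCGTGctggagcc
Gapdh, chr6:125165724-125166023, minus strand: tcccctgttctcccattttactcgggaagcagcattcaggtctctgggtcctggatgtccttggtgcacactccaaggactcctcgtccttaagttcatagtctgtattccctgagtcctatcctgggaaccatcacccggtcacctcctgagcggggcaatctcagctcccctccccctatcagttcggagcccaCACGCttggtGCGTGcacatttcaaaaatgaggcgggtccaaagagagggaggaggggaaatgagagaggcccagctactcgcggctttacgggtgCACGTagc
Aldoa, chr7:126799129-126799428, minus strand: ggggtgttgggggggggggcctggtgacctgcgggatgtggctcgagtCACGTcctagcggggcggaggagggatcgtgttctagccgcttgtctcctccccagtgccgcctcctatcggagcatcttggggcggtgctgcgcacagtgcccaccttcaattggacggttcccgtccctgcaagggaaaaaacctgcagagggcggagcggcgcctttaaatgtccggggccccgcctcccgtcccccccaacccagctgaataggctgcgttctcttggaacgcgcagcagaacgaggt
Tpi1, chr6:124814109-124814408, minus strand: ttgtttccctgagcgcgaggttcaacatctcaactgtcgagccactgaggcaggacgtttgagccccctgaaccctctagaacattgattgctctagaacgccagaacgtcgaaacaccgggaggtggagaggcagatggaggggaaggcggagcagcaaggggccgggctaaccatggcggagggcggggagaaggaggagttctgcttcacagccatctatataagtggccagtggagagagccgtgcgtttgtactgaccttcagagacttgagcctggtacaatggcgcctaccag

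At least 1 window of 9 of the 10 members held the core, with Tpi1 as the exception, against 46.7% of 27025 genes with a window and 43.8% of all 32851 windows. The core contains CG, and the GC content of the 16 windows was 52.7% to 69.3%, where the median of all windows was 52.7%, so that the shares are not matched for base composition. The upstream window of Ldha held 7 matches, 4 of which lie in 2 copies of CACGTG, a motif found in 7.15% of all windows. Hif1a and Gapdh held 3 matches each, Slc2a1 held 2 and the first window of Aldoa held 1. A κB-like motif, GGGA and TTCC spaced by 2 bases of any kind, was searched on both strands and found in the window of 1 member, Pgk1, and in 1.47% of all windows. A match is a description of the letters and does not show binding, and no match says only that these letters are not in this window.

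Among all genes tested, the member genes were called in 2 of the 3 comparisons. Between CD4IKK1Δ and CD4cre mice, none of the 9 members tested passed an FDR under 0.05 by edgeR's quasi-likelihood test with Benjamini-Hochberg adjustment, nor did any of the 15653 genes tested (0%), of which 2592 had an unadjusted p under 0.05. Between CD4NIKΔ and CD4cre mice, 3 of 8 members were called, Hif1a higher and Aldoa and Tpi1 lower, against a background of 21.1% of 15209 genes, 12.1% higher and 8.97% lower. Between CD4IKK1Δ and CD4NIKΔ mice, 7 of 9 members were called, against 42.2% of 16546 genes, 20.2% higher and 22% lower. Aldoa, Tpi1, Gapdh and Pkm were higher in CD4IKK1Δ mice, and Hif1a, Slc2a1 and Ldha were lower. With a more than 2-fold difference required as well, 1 member, Hif1a, remained in CD4NIKΔ against CD4cre mice, against 17.4% of genes, and 4 in CD4IKK1Δ against CD4NIKΔ mice, against 33.3%. Both comparisons with CD4cre mice share the same 3 control libraries, and Hk2 did not pass the filter on low counts in any comparison.

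**Figure D2:**
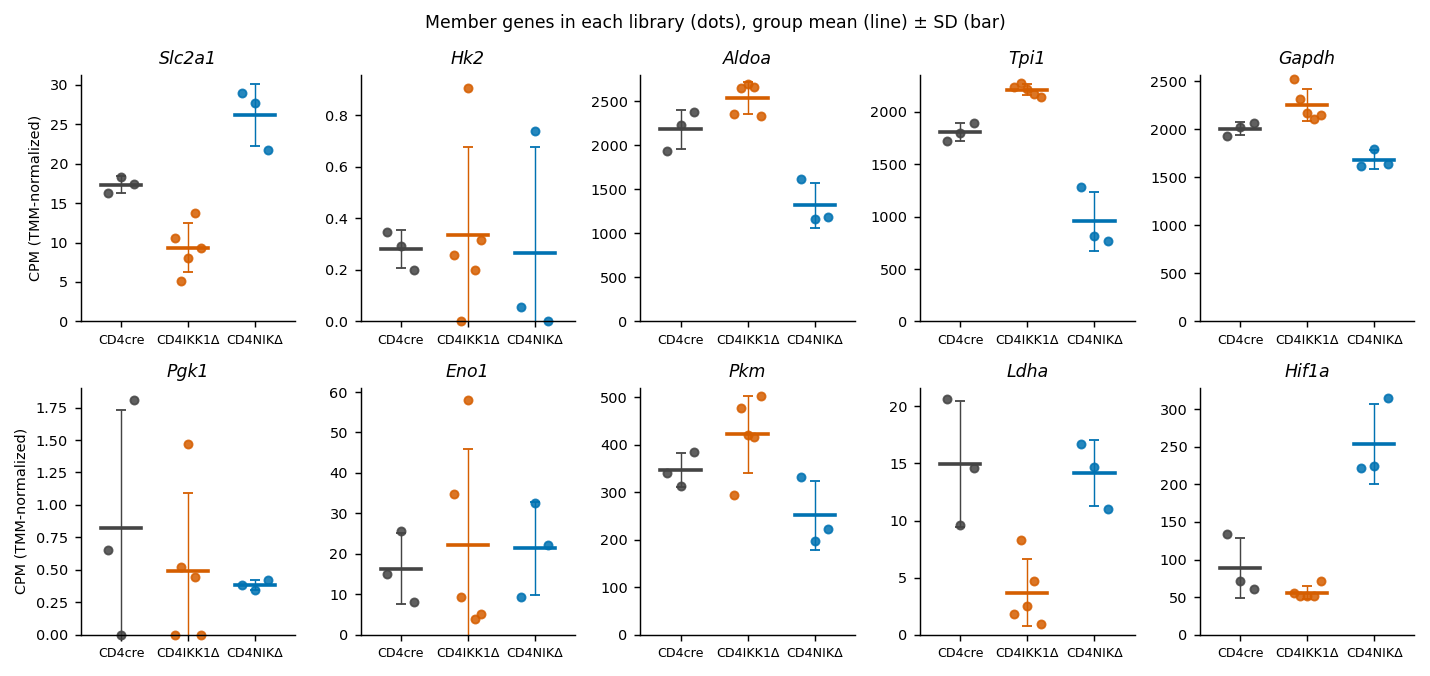
CPM (TMM-normalized, linear axes from 0) of the 10 members, 1 dot per library, with group means as lines and the SD as bars (n = 3 CD4cre, 5 CD4IKK1Δ and 3 CD4NIKΔ mice). Aldoa and Tpi1 are lowest in the 3 CD4NIKΔ libraries, and Hif1a is highest there with 221 to 315 CPM.

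Hif1a (chromosome 12, 73948149 to 73996321 of GRCm39) was called in both comparisons that include CD4NIKΔ mice. It was measured at 135, 71.8 and 61.2 CPM in the CD4cre libraries, at 55.2, 51.2, 50.9, 51.8 and 71.2 CPM in the CD4IKK1Δ libraries, and at 221, 225 and 315 CPM in the CD4NIKΔ libraries. All CD4NIKΔ libraries lay above all others, while CD4cre and CD4IKK1Δ libraries overlapped. Hif1a rose 2.82-fold in CD4NIKΔ over CD4cre mice (log2 fold change 1.50, standard error 0.31, edgeR FDR 0.0183), and was 4.52-fold lower in CD4IKK1Δ than in CD4NIKΔ mice (log2 fold change −2.18, standard error 0.24, FDR 8.00e-05). Against CD4cre, the estimate in CD4IKK1Δ mice was −0.67 (standard error 0.24, FDR 0.208), and the 95% interval of the log2 fold change ran from −1.21 to −0.14, from the t distribution with the degrees of freedom of edgeR's test. Hif1a values were whole numbers, within 0.01, in 9 of 11 libraries.

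Slc2a1 (chromosome 4, 118965908 to 118996365) encodes GLUT1, the main glucose transporter induced in activated T cells. It had 16.2, 18.4 and 17.4 CPM in CD4cre, 10.5, 5.13, 8.09, 13.7 and 9.29 CPM in CD4IKK1Δ and 29.0, 27.7 and 21.7 CPM in CD4NIKΔ libraries. The 3 groups did not overlap, with CD4IKK1Δ lowest and CD4NIKΔ highest. Slc2a1 was 2.79-fold lower in CD4IKK1Δ than in CD4NIKΔ mice (log2 fold change −1.48, standard error 0.30, edgeR FDR 0.00196). Neither comparison with CD4cre passed the test, with a log2 fold change of −0.89 (FDR 0.242) in CD4IKK1Δ and 0.58 (FDR 0.156) in CD4NIKΔ mice.

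Aldoa (chromosome 7, 126393822 to 126399923), the aldolase that splits fructose 1,6-bisphosphate, and Tpi1 (chromosome 6, 124787549 to 124791273), which interconverts the triose phosphates that result, were called in the same comparisons and in the same direction. Aldoa had 1939.6, 2236 and 2377 CPM in CD4cre, 2354, 2654, 2696, 2665 and 2333 CPM in CD4IKK1Δ and 1613, 1159 and 1188 CPM in CD4NIKΔ libraries. Every CD4NIKΔ library lay below the other groups, and CD4IKK1Δ overlapped CD4cre. Aldoa fell 1.67-fold in CD4NIKΔ against CD4cre mice (log2 fold change −0.74, standard error 0.22, edgeR FDR 0.0432) and was 1.92-fold higher in CD4IKK1Δ than in CD4NIKΔ mice (log2 fold change 0.94, standard error 0.13, FDR 0.000238).

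Tpi1 had 1725, 1796 and 1893 CPM in CD4cre, 2232, 2274, 2218, 2172 and 2140.1 CPM in CD4IKK1Δ and 1278, 818 and 767 CPM in CD4NIKΔ libraries. Here all 3 groups were apart, with CD4IKK1Δ highest. Tpi1 fell 1.90-fold in CD4NIKΔ against CD4cre mice (log2 fold change −0.93, standard error 0.24, edgeR FDR 0.0319) and was 2.31-fold higher in CD4IKK1Δ than in CD4NIKΔ mice (log2 fold change 1.21, standard error 0.15, FDR 0.000147). Against the controls, the estimate for Tpi1 in CD4IKK1Δ libraries was 0.29 on the log2 scale (standard error 0.06, FDR 0.0898), the lowest FDR of the members in that comparison, and DESeq2 with the same libraries called it at 0.28 with an adjusted p of 0.00178, but not with all 11 libraries (adjusted p 0.389). DESeq2 with the same libraries also called Ldha, and 1014 genes in all, 2.79% of its tested genes higher and 5.96% lower.

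Pkm (chromosome 9, 59563364 to 59586663) encodes the pyruvate kinase of most tissues, whose PKM1 and PKM2 isoforms a value per gene does not resolve. It had 342, 314 and 386 CPM in CD4cre, 295, 479, 420.3, 416 and 504 CPM in CD4IKK1Δ and 333, 198 and 224 CPM in CD4NIKΔ libraries. The groups overlapped, since CD4IKK1Δ replicate 1 lay below CD4NIKΔ replicate 1. Pkm was nevertheless called between CD4IKK1Δ and CD4NIKΔ mice, at 1.68-fold (log2 fold change 0.75, standard error 0.20, edgeR FDR 0.00996), but not without CD4NIKΔ replicate 2 (FDR 0.0595). Against CD4cre the log2 fold change was 0.29 (FDR 0.405) in CD4IKK1Δ and −0.48 (FDR 0.184) in CD4NIKΔ mice.

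Ldha (chromosome 7, 46490899 to 46505061), the lactate dehydrogenase subunit that favours lactate production, was listed at 20.6, 9.64 and 14.6 CPM in CD4cre, 1.81, 8.28, 2.55, 4.72 and 0.947 CPM in CD4IKK1Δ and 16.7, 14.7 and 11.0 CPM in CD4NIKΔ libraries. All CD4IKK1Δ libraries lay below the others. Ldha was 3.86-fold lower in CD4IKK1Δ than in CD4NIKΔ mice (log2 fold change −1.95, standard error 0.57, edgeR FDR 0.0161), while the log2 fold change against CD4cre was −2.03 (standard error 0.63, FDR 0.162). In CD4NIKΔ against CD4cre mice it was −0.09, with a 95% interval from −0.95 to 0.77. As given above, these are the listed counts of Ldha.

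Gapdh (chromosome 6, 125135289 to 125143518), which oxidizes glyceraldehyde 3-phosphate and often serves as a reference gene, had 1927, 2023 and 2061 CPM in CD4cre, 2521, 2310.3, 2169, 2103 and 2148 CPM in CD4IKK1Δ and 1618, 1796 and 1633 CPM in CD4NIKΔ libraries. The groups did not overlap, and Gapdh was called higher in CD4IKK1Δ than in CD4NIKΔ mice (1.34-fold, log2 fold change 0.42, standard error 0.10, edgeR FDR 0.00471). This call was lost with DESeq2 on the libraries of the comparison (log2 fold change 0.32, adjusted p 0.0546) and once near-identical copies were counted. The table lists 70 pseudogene copies with at least 95% identity to Gapdh over 500 bases, and they held from 6.85% to 38.2% of the estimated counts of Gapdh and copies together. Most of these counts were listed under Gm10359 and Gm12671, which match Gapdh at 100% over 1002 bases and had the same count as each other in every library.

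The pair Gm10359 and Gm12671 together had 565, 576 and 641 CPM in CD4cre, 142, 402, 640.2, 503 and 575 CPM in CD4IKK1Δ and 845, 1074 and 888 CPM in CD4NIKΔ libraries. All CD4NIKΔ libraries lay above the others for these copies, opposite to Gapdh itself. Summed with all copies, Gapdh came to 2636 ± 105 CPM (SD, n = 3) in CD4cre, 2742 ± 72.9 CPM (SD, n = 5) in CD4IKK1Δ and 2649.5 ± 223 CPM (SD, n = 3) in CD4NIKΔ mice. On this sum the log2 fold change between CD4IKK1Δ and CD4NIKΔ mice was 0.05 (standard error 0.09, edgeR FDR 0.695), between CD4IKK1Δ and CD4cre 0.06 (FDR 0.718) and between CD4NIKΔ and CD4cre −0.01 (FDR 0.979). No other member lost or gained a call when its copies were added, an alternative chosen after the counts of the copies were seen.

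**Figure D3:**
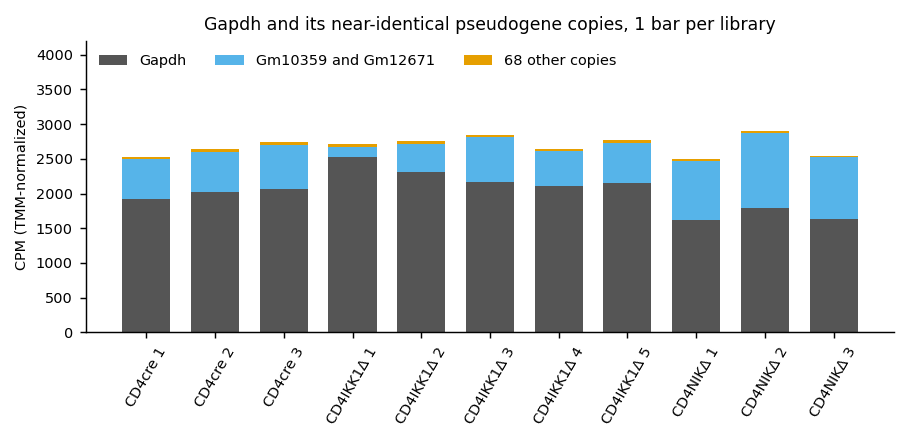
CPM (TMM-normalized, linear axis from 0) of Gapdh, of its identical copies Gm10359 and Gm12671, and of the 68 other near-identical copies, stacked for each of the 11 libraries. The stacks end between 2498 and 2906 CPM in every library, while the Gapdh part is smallest in the CD4NIKΔ libraries with 1618 to 1796 CPM.

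The remaining members were not separated between groups. Eno1, an enolase (chromosome 4, 150321073 to 150337027), was listed at 15.1, 25.7 and 8.18 CPM in CD4cre, 34.7, 9.43, 58.1, 3.78 and 5.23 CPM in CD4IKK1Δ and 9.39, 32.5 and 22.1 CPM in CD4NIKΔ libraries. Its spread within CD4IKK1Δ mice spanned the whole range of the other groups. The edgeR FDR of Eno1 was 0.885, 0.652 and 0.965 in CD4IKK1Δ against CD4cre, CD4NIKΔ against CD4cre and CD4IKK1Δ against CD4NIKΔ mice. Pgk1, which makes the first ATP of the pathway (chromosome X, 105230706 to 105247305), had 0.654, 0 and 1.81 CPM in CD4cre, 0, 0.524, 1.47, 0.448 and 0 CPM in CD4IKK1Δ and 0.387, 0.344 and 0.424 CPM in CD4NIKΔ libraries, and was not called where it could be tested. Hk2, the inducible hexokinase of activated T cells (chromosome 6, 82699740 to 82751469), had 0.346, 0.292 and 0.201 CPM in CD4cre, 0.259, 0, 0.906, 0.199 and 0.316 CPM in CD4IKK1Δ and 0.0552, 0.738 and 0 CPM in CD4NIKΔ libraries. With so few listed counts, no difference in Hk2 or Pgk1 could be measured, and none is thereby shown to be absent.

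**Figure D4:**
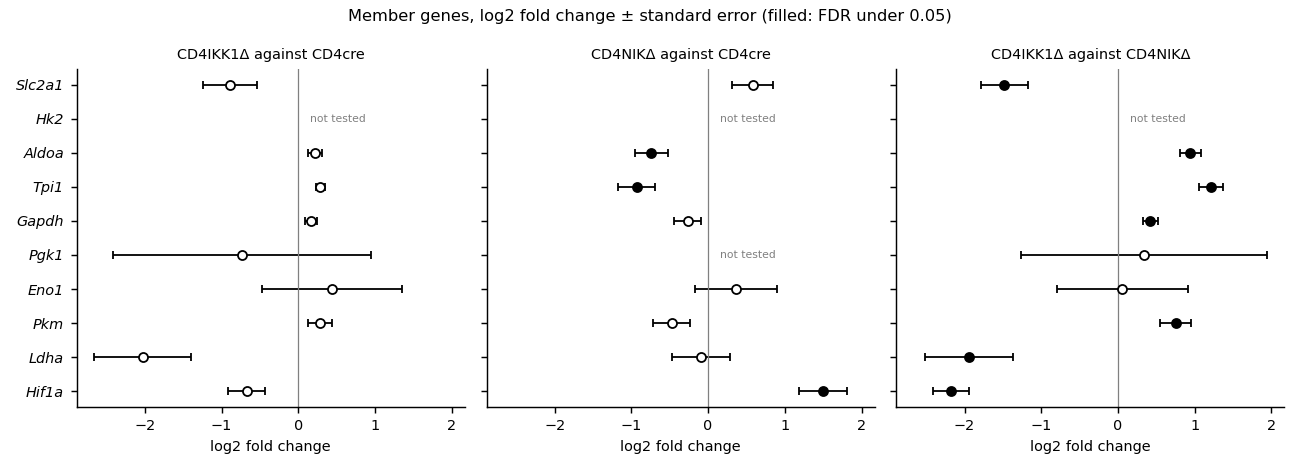
Log2 fold change (edgeR, dots) and standard error (bars) of the members in the 3 comparisons, filled where the FDR is under 0.05 and marked as not tested where the gene failed the count filter. No member is filled in CD4IKK1Δ against CD4cre mice, 3 are in CD4NIKΔ against CD4cre mice and 7 are in CD4IKK1Δ against CD4NIKΔ mice.

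The separation of the libraries was also counted without a model. In CD4IKK1Δ against CD4cre mice, 2 of the 9 members lay wholly above (Gapdh and Tpi1) and 2 wholly below the controls (Slc2a1 and Ldha), where 6.02% and 8.44% of all genes tested did so. In CD4NIKΔ against CD4cre mice 2 of 8 lay above (Slc2a1 and Hif1a) and 3 below (Aldoa, Gapdh and Tpi1), against 22.9% and 22.4%. In CD4IKK1Δ against CD4NIKΔ mice 3 of 9 lay above and 3 below, against 20.7% and 24.4%. The median log2 fold change of the members was 0.17, −0.18 and 0.34 in the 3 comparisons in this order, beside 0.02, −0.02 and 0.06 over all genes tested. Without CD4IKK1Δ replicate 3 the median turned to −0.30 against CD4cre and to −0.64 against CD4NIKΔ mice. With near-identical copies added to each member, the medians in the 3 comparisons were 0.06, −0.05 and 0.11. Gapdh is counted in this paragraph without its copies, and summed with them its values overlapped between all groups.

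The calls of members in CD4NIKΔ against CD4cre mice depended on single libraries. Without CD4cre replicate 2 or 3, or without CD4NIKΔ replicate 2 or 3, no member was called, with edgeR FDR values of up to 0.0665 for Hif1a and 0.141 for Aldoa, although the directions held. Without CD4cre replicate 1 there was 1 call, Hif1a, and without CD4NIKΔ replicate 1 there were 4, with Pkm at an FDR of 0.0165 as the addition. All genes called dropped from 3208 to between 692 and 1004 in the same 4 removals. Upper-quartile factors moved the median log2 fold change of all genes to −0.16 in this comparison and to 0.30 in CD4IKK1Δ against CD4NIKΔ mice, and left the same number of members called in each direction. The genes called higher and lower in CD4NIKΔ against CD4cre mice were 1843 and 1365 with TMM, 1647 and 2302 with upper-quartile factors and 1603 and 1849 with library size alone. For CD4IKK1Δ against CD4NIKΔ mice they were 3339 and 3648 with TMM and 4114 and 3004 with upper-quartile factors.

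Of 16 other transporters, enzymes and regulators of glycolysis, 14 or 15 could be tested in each comparison. None was called in CD4IKK1Δ against CD4cre mice. In CD4NIKΔ against CD4cre mice 2 of the 15 were higher and 2 lower, where 12.1% and 8.97% of all genes were. Pgm2, a phosphoglucomutase that also acts on pentose phosphates, rose from 7.87 ± 2.33 to 39.9 ± 11.6 CPM (SD, n = 3 each, log2 fold change 2.33, edgeR FDR 0.00772). Slc16a1, the lactate transporter MCT1, rose from 15.5 ± 2.42 to 35.5 ± 4.14 CPM (SD, n = 3 each, FDR 0.0221). Pfkm, the muscle-type phosphofructokinase, fell from 128 ± 7.27 to 61.8 ± 20.7 CPM (FDR 0.0285), and Ldhb, the lactate dehydrogenase subunit that favours pyruvate, fell from 426 ± 32.0 to 257 ± 43.1 CPM (FDR 0.0328). In each of these 4 genes, named for their low FDR, the 3 CD4NIKΔ libraries did not overlap the controls. Of the 15 genes, 4 lay wholly above and 4 wholly below the controls, where 22.9% and 22.4% of all genes tested did so.

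Between CD4IKK1Δ and CD4NIKΔ mice 4 of the 15 were higher and 4 lower, where 20.2% and 22% of all genes were. Pfkm (log2 fold change 1.44, FDR 0.000223), Ldhb (0.84, FDR 0.000515) and Pgam1, the phosphoglycerate mutase after Pgk1 (1.05, FDR 0.00055), were higher in CD4IKK1Δ mice by edgeR's test, and Pgm2 was lower (−3.32, FDR 0.000298). The median log2 fold change of the 15 genes was 0.05, beside 0.06 over all genes tested.

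Several members have an isoenzyme made by another gene. Aldoc, the brain-type aldolase, had 88.2 to 125 CPM in CD4cre, 114 to 156 CPM in CD4IKK1Δ and 35.3 to 80.0 CPM in CD4NIKΔ libraries, and was higher in CD4IKK1Δ than in CD4NIKΔ mice (log2 fold change 1.30, edgeR FDR 0.00142). Eno2, the neuronal enolase, had 340.2 to 451 CPM in CD4cre, 444 to 662 CPM in CD4IKK1Δ and 119.9 to 229 CPM in CD4NIKΔ libraries. It lay lowest in CD4NIKΔ mice without overlap and fell there by 1.25 on the log2 scale against CD4cre in edgeR's test (FDR 0.0193). Eno3, the muscle enolase, was at 0 to 0.308 CPM in CD4cre and at 5.07 to 13.8 CPM in CD4NIKΔ libraries, and 8.80 CPM in CD4IKK1Δ replicate 1 stood apart from 0 to 0.0566 CPM in the other 4 CD4IKK1Δ libraries. Eno3 was called higher in CD4NIKΔ than in CD4cre mice (edgeR FDR 0.00916). The hexokinases other than Hk2 were also listed at low values, with Hk1 at 0.243 to 4.33 CPM over all libraries. Hk3 was listed at 0 in all 5 CD4IKK1Δ libraries, 0 to 2.31 CPM in CD4cre and 1.08 to 2.60 CPM in CD4NIKΔ libraries. Hk3 was called lower in CD4IKK1Δ than in CD4NIKΔ mice (edgeR FDR 0.00674). Slc2a3, the GLUT3 transporter, had 0.497 to 10.3 CPM and overlapped between all groups.

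The ratio of each of 4 members to its isoenzyme was compared by an exact permutation test over libraries, two-sided, with 12 tests in all. Ldha, Eno1, Hk2 and Hk1 enter these ratios with their listed counts, which are not taken as the level of the gene. Hk2 had 0 to 16 and Hk1 had 5 to 88 counts per library. The log2 ratio of Ldha to Ldhb was −4.90 ± 0.65 (SD, n = 3) in CD4cre, −7.34 ± 1.18 (SD, n = 5) in CD4IKK1Δ and −4.19 ± 0.39 (SD, n = 3) in CD4NIKΔ mice. CD4IKK1Δ libraries lay below both other groups without overlap, at an exact p of 0.0357 in each case, which is the smallest that 3 against 5 libraries can give, and an adjusted p of 0.214. The other 3 ratios, of Eno1 to Eno2, Hk2 to Hk1 and Aldoa to Aldoc, overlapped between all groups, with exact p values of 0.107 or more. With 3 against 3 libraries the test cannot go below 0.1. Given these smallest values, no adjusted p over the 12 tests could fall under 0.05. The adjusted p therefore cannot show that a ratio did not differ.

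Partners and regulators of HIF-1α were examined as 9 genes, of which 8 could be tested. Of these, 1 was called in CD4NIKΔ against CD4cre mice, where 21.1% of all genes were. Arnt2, a partner of HIF-1α that is best known from neurons, fell from 90.3 ± 13.5 to 37.0 ± 8.25 CPM (SD, n = 3 each, log2 fold change −1.30, edgeR FDR 0.0141), and it was higher in CD4IKK1Δ than in CD4NIKΔ mice (1.74, FDR 0.0001). In the latter comparison 2 of the 8 were higher and 1 lower, where 42.2% of all genes were called. Hif1an, which encodes the asparagine hydroxylase that inhibits HIF-1α, was lower in CD4IKK1Δ than in CD4NIKΔ mice (−0.73, FDR 0.0472), and Hif3a, a further HIF subunit with values close to the floor in some libraries, was higher (2.63, FDR 0.049). The prolyl hydroxylase Egln3 had a log2 fold change of −0.82 (FDR 0.218).

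Of 24 genes known to be induced in hypoxia, 20 could be tested. In CD4NIKΔ against CD4cre mice 2 were higher and 3 lower by edgeR's test, where 12.1% and 8.97% of all genes were. The median log2 fold change of the 20 was 0.23. Ero1a, an oxidase of protein folding, rose from 40.8 ± 6.43 to 87.2 ± 12.6 CPM (SD, n = 3 each, FDR 0.0173), and Hilpda, a lipid droplet protein, rose as well (log2 fold change 0.82, FDR 0.0345). In the opposite direction, Bnip3, a mitophagy receptor, fell from 202 ± 42.1 to 76.9 ± 30.8 CPM (FDR 0.0215), Ak4, a mitochondrial adenylate kinase, from 119.5 ± 7.89 to 52.7 ± 15.8 CPM (FDR 0.0184), and Higd1a from 261 ± 15.2 to 163 ± 15.9 CPM (FDR 0.0279).

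Between CD4IKK1Δ and CD4NIKΔ mice 3 of the 20 hypoxia genes were higher and 6 lower, where 20.2% and 22% of all genes were. Hilpda had 49.0, 39.3, 56.9, 39.4 and 71.1 CPM in CD4IKK1Δ and 159.6, 165 and 186 CPM in CD4NIKΔ libraries (log2 fold change −1.73, edgeR FDR 0.000134), with 75.5 to 124 CPM in CD4cre. The groups did not overlap. Ddit4, an inhibitor of mTORC1, was at 0.0647 to 1.85 CPM in CD4IKK1Δ and at 7.94 to 13.2 CPM in CD4cre libraries, with a log2 fold change of −3.14 that did not pass the test (FDR 0.0999).

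Of 11 genes of mitochondrial pyruvate use, which encode the pyruvate carrier, pyruvate dehydrogenase and the kinases and phosphatase that regulate it, 3 were lower, none was higher and 8 were not called in CD4NIKΔ against CD4cre mice by edgeR's test, where 8.97% of all genes were lower. The median log2 fold change of the 11 was −0.07. The 3 called were the subunits of the mitochondrial pyruvate carrier Mpc1 (log2 fold change −0.76, FDR 0.0322) and Mpc2 (−0.77, FDR 0.0251), and Pdk2, a kinase that inhibits pyruvate dehydrogenase (−0.98, FDR 0.0449). All 3 were higher in CD4IKK1Δ than in CD4NIKΔ mice, with Mpc1 at 1.06 (FDR 0.000165), and Pdhb, a subunit of pyruvate dehydrogenase, was lower (−1.29, FDR 0.0182), which made 3 and 1 of 11 beside 20.2% and 22% of all genes.

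The pentose phosphate pathway branches from glycolysis and yields NADPH and ribose. Of its 7 genes, 2 were higher, none was lower and 5 were not called in CD4NIKΔ against CD4cre mice by edgeR's test, where 12.1% of all genes were higher. Taldo1, transaldolase, rose from 233 ± 27.1 to 456 ± 36.3 CPM (SD, n = 3 each, log2 fold change 0.96, FDR 0.0118), and Tkt, transketolase, rose from 87.6 ± 19.4 to 158 ± 6.20 CPM (0.83, FDR 0.0283). Both were lower in CD4IKK1Δ than in CD4NIKΔ mice (−1.05, FDR 0.000168 and −1.29, FDR 0.00052), as was Pgd, the phosphogluconate dehydrogenase (−1.48, FDR 0.00902), so that 3 of the 7 were lower beside 22% of all genes. The median log2 fold change of the 7 genes was 0.69 and −1.05 in these comparisons.

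Of 8 regulators tied to glucose use in T cells, 2 were higher and 6 not called in CD4NIKΔ against CD4cre mice, where 12.1% of all genes were higher, and 1 was higher, 3 lower and 4 not called in CD4IKK1Δ against CD4NIKΔ mice, where 20.2% and 22% were. Myc was measured at 70.8, 74.3 and 30.1 CPM in CD4cre, 5.56, 8.96, 11.5, 16.0 and 23.1 CPM in CD4IKK1Δ and 141, 225 and 254 CPM in CD4NIKΔ libraries. The 3 groups did not overlap. Myc rose in CD4NIKΔ against CD4cre mice (log2 fold change 1.81, edgeR FDR 0.0166) and was lower in CD4IKK1Δ than in CD4NIKΔ mice (−3.98, FDR 9.94e-05), whereas the difference from CD4cre in CD4IKK1Δ mice did not pass (−2.16, FDR 0.0878). Prkaa1, a catalytic subunit of AMP-activated kinase, rose as well in CD4NIKΔ mice (1.33, FDR 0.0141). Rheb, the activator of mTORC1, was higher in CD4IKK1Δ than in CD4NIKΔ mice (0.90, FDR 0.000268). Prkaa1 (−1.41, FDR 0.000348) and Akt1, a kinase upstream of mTORC1 (listed at 0 to 2 counts in CD4IKK1Δ and 19 to 34 counts in CD4NIKΔ libraries, FDR 0.0106), were lower there.

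Aldoa and Tpi1 were lowest in the 3 libraries with the most T cell marker RNA, and Hif1a and Slc2a1 were highest there. Ldha was lowest in the 5 CD4IKK1Δ libraries, which had the least T cell marker RNA, and overlapped between the other groups, as Aldoa and Hif1a did between CD4IKK1Δ and CD4cre libraries. Pkm in CD4IKK1Δ replicate 1, the library with the least T cell signal, lay below all CD4cre libraries. The neuron markers given above were, like Tpi1, lowest in CD4NIKΔ and highest in CD4IKK1Δ libraries without overlap, and 10 glia markers summed to 720 to 865 CPM in CD4cre, 701 to 935 CPM in CD4IKK1Δ and 481 to 768 CPM in CD4NIKΔ libraries. Summed proliferation markers, 8 cell cycle genes, were also highest in CD4NIKΔ libraries, at 139 to 184 CPM in CD4cre, 98.1 to 197 CPM in CD4IKK1Δ and 526 to 595 CPM in CD4NIKΔ libraries, and 6 of the 8 were called higher in CD4NIKΔ than in CD4cre mice, against 12.1% of all genes. Summed myeloid markers, 13 genes of cells that also use glycolysis, were at 464 to 1968 CPM, 102 to 269 CPM and 678 to 1013 CPM in the same order of groups. In the same order, 7 erythroid markers summed to 2082 to 2683, 532 to 1614 and 1178 to 8191 CPM, 10 kidney tubule markers to 18.0 to 80.7, 4.87 to 11.4 and 12.7 to 104 CPM, 5 markers of CD8 and NK cells to 17.6 to 41.9, 1.47 to 11.9 and 45.3 to 133 CPM, and 6 endothelial markers to 17.1 to 23.0, 11.4 to 17.7 and 25.3 to 56.5 CPM. The T cell markers and the CD8 and NK markers separated all 3 groups in the order of Slc2a1. The myeloid and the tubule markers were lowest in CD4IKK1Δ libraries without overlap, as Ldha was. The part of these cells in the values of the members was not tested. Without CD4IKK1Δ replicates 1 and 2, the libraries with the least T cell signal, the same number of members was called, 0 against CD4cre mice and 7 against CD4NIKΔ mice, with Hif1a at a log2 fold change of −2.13 and Tpi1 at 1.19 in the latter. The remaining CD4IKK1Δ libraries held 591 to 1370.2 summed CPM of T cell markers, so that the gap to the 8408 to 12580 of CD4NIKΔ libraries remained. Against CD4cre mice, the fit with all CD4IKK1Δ libraries had called no gene either.

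**Figure D5:**
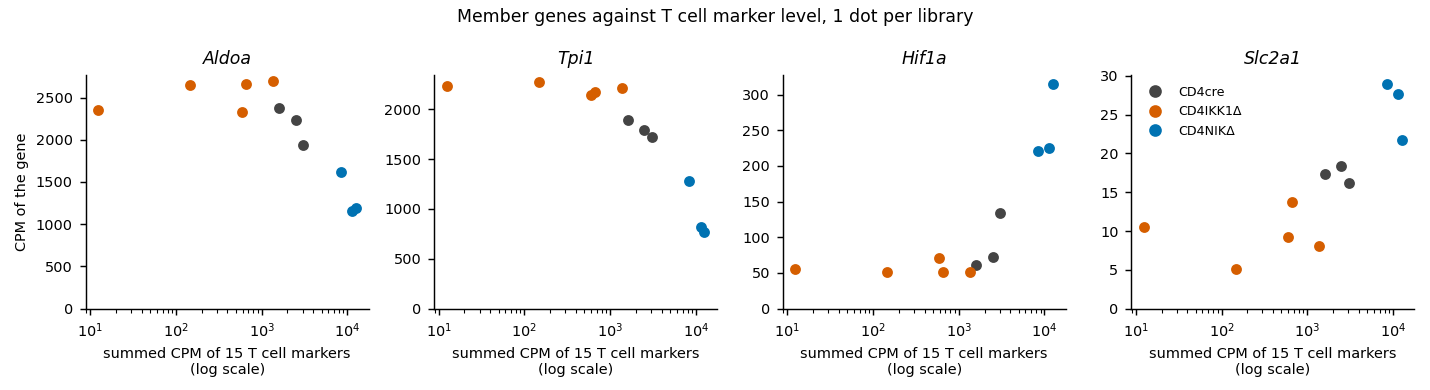
CPM of Aldoa, Tpi1, Hif1a and Slc2a1 (linear axes from 0) against the summed CPM of 15 T cell markers (log scale), 1 dot per library in the color of its group. The 3 CD4NIKΔ libraries, at 8408 to 12580 summed CPM, hold the lowest Aldoa and Tpi1 values and the highest Hif1a and Slc2a1 values.

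Genes with the pattern most like 3 members were sought by Pearson's correlation of log2 CPM over the 11 libraries, which share their groups and their depth, among 16545 genes. For Hif1a these were Cnbp (r = 0.989), Shisa5 (0.989), Arhgap15 (0.986), Rnf138 (0.985) and Cd47 (0.984). For Slc2a1 they included Ap1m1 (0.969), Ncbp3 (0.958), Akip1 (0.956) and Qprt (0.953). The pattern of Gapdh without its copies was shared by Edf1 (0.979), Tomm7 (0.976), Uqcrq (0.974), Cox14 (0.973) and Psmb5 (0.971). These values describe the 11 libraries and were not tested.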

How the data were processed

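Libraries from 3 CD4cre, 5 CD4IKK1Δ and 3 CD4NIKΔ mice were grouped by the genotype in the labels. The authors trimmed reads with Trimmomatic, ran kallisto, and deposited its estimated counts, 1 for each symbol in each library, not normalized. Neither the version of kallisto nor its annotation is given in the sources used here. The paper's methods name the assembly GRCm39, whereas the submitters' processing notes list mm10, and no coordinate was needed to make the table. Gene coordinates are from GENCODE M39 on GRCm39, which holds 33508 of the 35814 symbols, and promoters are from RefSeq on GRCm38.p6. None of the 55 pairs of libraries held identical values. The replicates came from separate mice.

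Estimated counts were rounded to whole numbers, filtered by edgeR's expression filter, scaled by TMM and compared by the robust quasi-likelihood test of edgeR 4.0.16 in R 4.3.3. P-values were adjusted by Benjamini-Hochberg over all genes tested, with a threshold of an FDR under 0.05. Each comparison with CD4cre used its own libraries, and CD4IKK1Δ against CD4NIKΔ used all 11. CPM use TMM factors, and log2 CPM a prior count of 2. Ratios of isoenzymes used a prior count of 0.5. Copies were found with BLAST+ 2.17.0 against GENCODE transcripts. The tests were checked on simulated data. Lists that share genes, such as the isoenzymes and the other glycolysis steps, are not independent. Genes were named by a rule: the members, their isoenzymes, the targeted genes, up to 4 genes with the lowest FDR per list and comparison, and the 5 genes most like Hif1a, Slc2a1 and Gapdh. Of the genes that the rule selects, those described in the text are examples, and some are not reported here. The members and lists were chosen with earlier results of these data known. Alternatives were RLE, upper-quartile and library size scaling, a filter of 1 count in any library, all 11 libraries in the fit, DESeq2 (1.42.0), the replicate number as a block, a more than 2-fold threshold, a prior count of 5 for ratios, and leaving out libraries. The numbers of the replicates did not pair the libraries, with correlations of the deviations between −0.089 and 0.077.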

Additional observations from a re-analysis of the deposited data

Results flagged for a closer look

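Hif1a in CD4IKK1Δ replicate 5 stood apart from the other 4 CD4IKK1Δ libraries. On the log2 CPM scale, its gap to the nearest library was 0.761 of the range of the group, above Dixon's critical value of 0.71 for 5 samples, with 71.2 CPM against 50.9 to 55.2 CPM in the others. This was 1 of 14 checks of this kind, and chance flags about 1 in 20 groups. Hif1a was called between CD4IKK1Δ and CD4NIKΔ mice under all leave-one-out fits, with log2 fold changes from −2.29 to −1.998.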

How the results depend on the processing

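No member was called in CD4IKK1Δ against CD4cre mice except by DESeq2, with 2 calls (Tpi1 and Ldha) for the libraries of the comparison and 1 (Ldha) for all 11 libraries. All genes called in this comparison, 0 in the edgeR fit reported, were 1 with RLE and 1 with upper-quartile factors, 60 with a filter of 1 count in any library, 132 with all 11 libraries in the fit, 1014 and 810 with DESeq2, 37 without CD4IKK1Δ replicates 1 and 2 together, and 0 to 25 when leaving out 1 library. In CD4NIKΔ against CD4cre mice, 3 members were called, 1 with a more than 2-fold threshold and 0 to 4 when leaving out 1 library, and the 3208 genes became 5068 with DESeq2 and 692 to 4245 when leaving out 1 library. In CD4IKK1Δ against CD4NIKΔ mice, 7 members were called and 4 with a more than 2-fold threshold. With the replicate number as a block, the members called were 0, 1 (Hif1a) and 5, and the genes called 3, 1187 and 5749 in the 3 comparisons, although the numbers did not pair the libraries. Ldha (edgeR FDR 0.0567) and Pkm (FDR 0.0863) lost their calls in CD4IKK1Δ against CD4NIKΔ mice with this block. Estimates that did not pass the test turned direction in some fits. When leaving out 1 library, Pgk1 ran from −1.72 to 0.557 in CD4IKK1Δ against CD4cre mice and from −0.643 to 0.655 in CD4IKK1Δ against CD4NIKΔ mice, Ldha from −0.305 to 0.207 in CD4NIKΔ against CD4cre mice, Eno1 from −0.305 to 0.932, from −0.0328 to 0.887 and from −0.685 to 0.491 in the 3 comparisons, and the log2 ratio of Aldoa to Aldoc in CD4IKK1Δ against CD4cre mice from −0.112 to 0.0533. Ldha was at 0.0166 in CD4NIKΔ against CD4cre mice with DESeq2 and all 11 libraries, and Eno1 in CD4IKK1Δ against CD4NIKΔ mice was at −0.0385 with RLE factors and at −0.0431 and −0.0370 with DESeq2. The cause was not tested. Hif1a, Slc2a1, Aldoa and Tpi1 kept their calls in CD4IKK1Δ against CD4NIKΔ mice under all 21 alternative fits.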
